A study of Mus musculus with 56 samples.

Results

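Lpl and 9 genes of the fat cell's lipid machinery (Adipoq, Fabp4, Plin1, Plin4, Cidec, Lep, Retn, Cd36 and Pnpla3) were followed library by library through the male mouse reproductive tract. These 10 genes were taken by symbol from the 53379 gene rows of the count table, and all 10 were found. They were chosen by the measured age difference of Lpl, which was lower in old mice in each region, together with genes that fat attached to a dissected organ would carry. The age differences of the 10 genes are therefore given as descriptions, with no p-value for any single gene, while differences between regions and the age differences of other lipid genes were tested.

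The study sequenced total RNA from C57BL/6 male mice of 3 months and of 21 months. Along the tract 7 regions gave 4 libraries per age, 56 in all: testis, the efferent ductules behind it, the epididymis in 4 pieces (initial segment, then caput, corpus, cauda), and the vas deferens. Organs of both sides of a mouse were combined. Fat and excess connective tissue were removed, and the regions were then separated under a microscope. The regions were cut from the same mice, so the libraries of an age share animals, but which libraries share 1 is not given, and the tests between regions and the index fit treat them as independent. P-values measure the spread between these libraries, and in bulk tissue fewer cells of a type and less RNA per cell cannot be told apart.

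Lipoprotein lipase, the product of Lpl, is made by fat, muscle and macrophages, carried to the capillary wall, and there cuts triglycerides out of circulating lipoproteins. The freed fatty acids enter cells through carriers such as CD36 and are bound inside by FABP4. White fat cells rebuild them into triglyceride and store it in 1 large droplet coated by perilipins, and they secrete the hormones adiponectin, leptin and resistin. In the mouse a fat pad lies against the epididymis. Macrophages that take up lipid also make LPL, CD36 and FABP4, but not adiponectin or perilipin 1.

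The genes are spread over the mouse genome (GRCm38). Lpl lies at chr8:68880491-68907448 on the plus strand. Adipoq, for adiponectin, lies at chr16:23146536-23158028, Lep, for leptin, at chr6:29060220-29073877, and Retn, for resistin, at chr8:3655770-3660110. Among the droplet genes, Plin1 (chr7:79720218-79732903) codes for the main coat protein of the fat cell's droplet, Plin4 (chr17:56100591-56109803) for a coat protein of small new droplets, and Cidec (chr6:113424634-113435760) for the protein that fuses droplets into 1. Pnpla3 (chr15:84167837-84187236) codes for a droplet enzyme that rises with feeding, Fabp4 (chr3:10204088-10208576) for the cytosolic fatty acid carrier, and Cd36 (chr5:17781690-17888801) for the surface carrier. Plin4 overlaps Hdgfl2 on the opposite strand, and the strand setting of the counting is not given in the sources used here, so reads of the pair may have been shared.

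Promoter sequence was at hand in RefSeq (GRCm38.p6, 250 bases before to 50 after the start) for 8 of the 10 genes, the exceptions being Lpl and Fabp4. The 3 hormone genes are shown because their levels parted with age in the regions with most fat signal. Capitals mark a CCAAT box in Adipoq on either strand (read as ATTGG on the other), and in Lep the palindrome TTGCGCAA, which C/EBP factors bind. The Retn window held none of the motifs searched and has no capitals.
Adipoq, chr16:23146286-23146585, plus strand: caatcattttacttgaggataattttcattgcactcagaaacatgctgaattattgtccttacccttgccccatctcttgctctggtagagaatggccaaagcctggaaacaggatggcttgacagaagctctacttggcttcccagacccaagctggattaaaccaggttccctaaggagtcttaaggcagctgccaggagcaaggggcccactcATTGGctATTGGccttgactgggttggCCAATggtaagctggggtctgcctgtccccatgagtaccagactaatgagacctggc
Lep, chr6:29059971-29060270, plus strand: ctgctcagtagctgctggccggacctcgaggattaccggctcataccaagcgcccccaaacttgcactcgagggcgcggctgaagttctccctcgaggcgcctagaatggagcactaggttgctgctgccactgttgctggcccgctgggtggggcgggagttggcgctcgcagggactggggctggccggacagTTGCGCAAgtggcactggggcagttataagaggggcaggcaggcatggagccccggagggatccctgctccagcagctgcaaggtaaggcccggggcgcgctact
Retn, chr8:3655520-3655819, plus strand: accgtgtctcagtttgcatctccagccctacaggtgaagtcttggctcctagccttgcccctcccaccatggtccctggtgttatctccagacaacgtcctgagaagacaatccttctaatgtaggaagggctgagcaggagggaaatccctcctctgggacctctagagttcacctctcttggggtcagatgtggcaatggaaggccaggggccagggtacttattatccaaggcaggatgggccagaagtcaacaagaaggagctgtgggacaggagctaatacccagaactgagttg
The Adipoq window held 3 CCAAT boxes. The motif was found in 37.4% of all 32851 promoters, searched on both strands, and also in the windows of Cd36, Plin4 and Pnpla3. TTGCGCAA was found in 0.183% of all promoters and, among the 8 genes with a window, only in Lep. AGGTCA, the site of 1 nuclear receptor subunit, was found in 16.3% of promoters and in the window of Cd36. A match is a description of the letters in the window only.

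Levels are given as CPM, the count divided by the library's total in units of 1e+06 reads after TMM scaling over all 56 libraries. Totals ran from 11125279 to 20561967 counts per library, with a median of 16384049. A count of 0 allows up to 3 counts, which came to between 0.143 and 0.401 CPM, and a level below that was not told from 0. A pair of libraries stood furthest apart in the genes treated here, replicate 3 of the cauda epididymis at 3 months, high in Lpl, and replicate 4 of the vas deferens at 21 months, low in all of them. Several results for Lpl are given with and without the cauda library. For the vas deferens library some age estimates are also given without replicate 4 of both ages. The regional p-values, the vas deferens index estimate and the likeness values include it. The 8 germ cell markers, checked against the label of the testis, summed to at least 6894 CPM there and to at most 323 CPM in any other library.

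Lpl had its highest group mean at both ages in the efferent ductules, the small tubules that join the testis to the epididymis. At 3 months their 4 libraries held 203, 270, 220 and 249 CPM, and at 21 months 88.3, 151, 61.3 and 49.1 CPM, so that each old library lay below each young one. The initial segment held 8.93, 6.64, 14.7 and 7.55 CPM at 3 months against 5.87, 4.65, 3.54 and 4.83 CPM at 21 months. The caput held 8.37, 7.49, 18.0 and 5.98 CPM against 5.32, 4.36, 4.75 and 3.31 CPM. In both of these proximal regions the ages again did not overlap, although the gap between the nearest libraries was under 1 CPM. The corpus held 25.0, 57.7, 100 and 34.1 CPM at 3 months and 13.3, 14.5, 26.5 and 23.4 CPM at 21 months. The vas deferens held 106, 20.9, 69.6 and 54.0 CPM against 29.8, 21.6, 23.1 and 5.65 CPM. These were the regions in which the ages overlapped, each through a single low library at 3 months. The cauda held 32.1, 19.3, 604 and 18.8 CPM at 3 months, and 10.1, 12.8, 9.85 and 8.16 CPM at 21 months. The testis held the least Lpl, at 1.43, 1.09, 1.09 and 1.71 CPM against 0.874, 0.698, 0.599 and 0.827 CPM, or 94 counts over the young and 55 over the old libraries.

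On the log2 scale Lpl was lower at 21 months by 1.37 ± 0.29 (SE) in the efferent ductules and by 0.82 ± 0.28 in the testis. Initial segment and caput differed by -0.86 ± 0.24 and -1.23 ± 0.30. The difference was 1.47 ± 0.31 in the corpus and 1.71 ± 0.50 in the vas deferens. In the cauda the estimate was a fall of 4.12 ± 1.14 with all libraries and of 1.16 ± 0.23 without young replicate 3. Without replicate 3 of both ages the estimate was -0.45 for the initial segment and -0.81 for the caput. Without replicate 4 of both ages it was -1.47 for the vas deferens. The sign was the same in every region under each of 12 or 13 alternative ways of processing. Young replicate 3 held the most Lpl of its group in 4 of 7 regions and the most of the fibroblast markers in 6 of 7, and whether its libraries came from 1 mouse is not given.

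**Figure D1:**
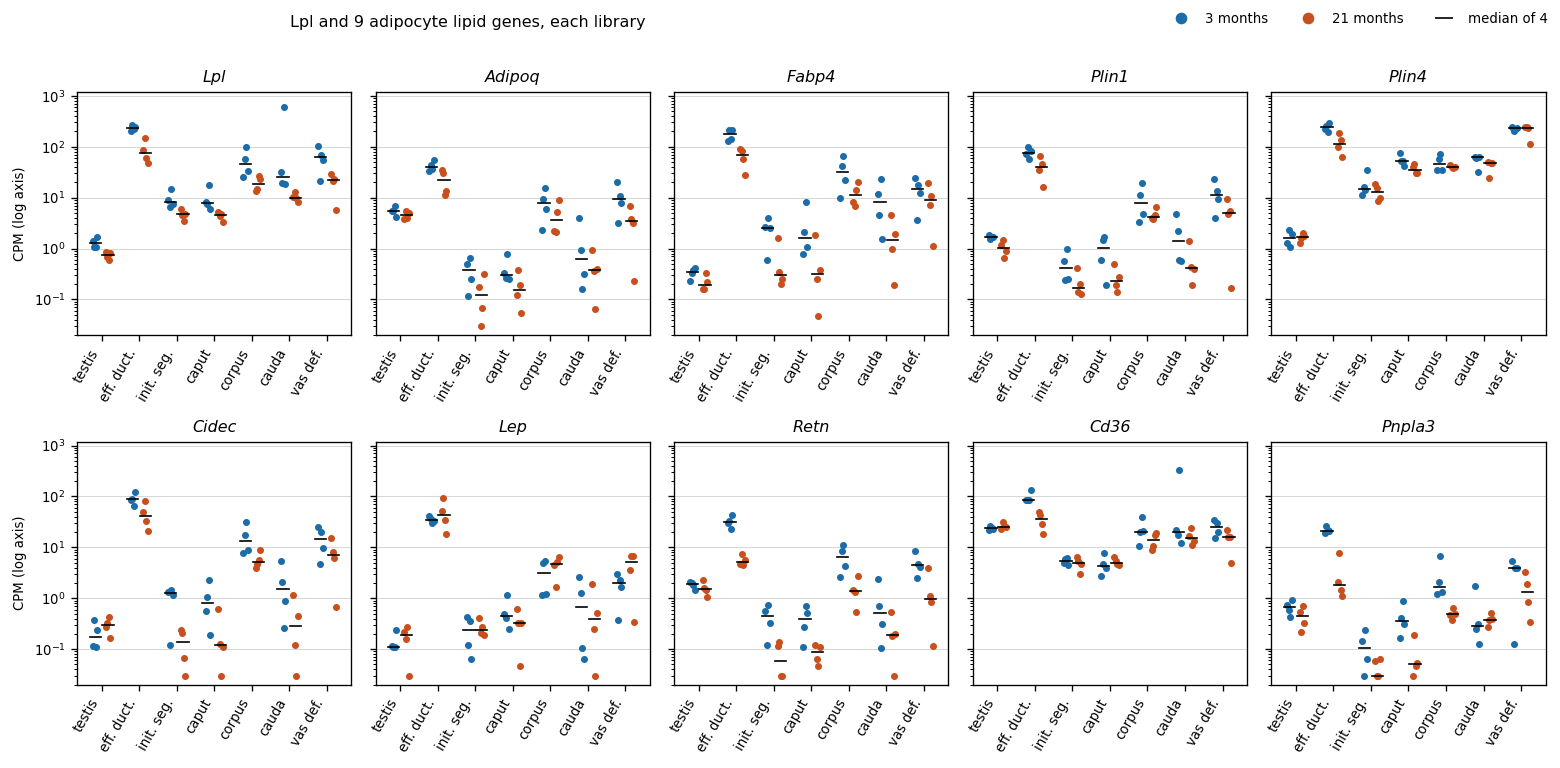
Each point is 1 library, with CPM on a log axis and the 7 regions along each panel, blue for 3 months and orange for 21 months; bars are the median of the 4 libraries, and libraries at 0 are drawn at 0.03 CPM. Lpl sits lower at 21 months in all 7 regions, while Lep does not, and 1 young cauda library stands alone at 604 CPM of Lpl and 337 CPM of Cd36.

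The regional order of Lpl was tested with edgeR over the 21 pairs of regions at each age. It differed in 16 of 21 pairs at 3 months and in 19 of 21 pairs at 21 months, where over all genes and pairs 48.9% and 48.5% passed an adjusted p of 0.05. At 21 months the efferent ductules (87.3 ± 45.2 CPM, SD, n = 4) stood above the vas deferens (20.0 ± 10.2 CPM, adjusted p = 3.1e-06). The vas deferens and the corpus (19.5 ± 6.51 CPM) did not differ beyond their spread (adjusted p = 0.95). Next came the cauda at 10.2 ± 1.94 CPM, below the corpus (adjusted p = 0.024) and above the initial segment at 4.72 ± 0.952 CPM (adjusted p = 0.038). The caput, at 4.44 ± 0.847 CPM, did not differ from the initial segment (adjusted p = 0.785), and the testis at 0.750 ± 0.125 CPM lay below both. At 3 months caput and initial segment changed places without differing, and the cauda, with a mean of 169 ± 290 CPM, came second. The cauda overlapped the efferent ductules (236 ± 29.9 CPM) at that age and did not differ from them (adjusted p = 0.603). Without replicate 3 the young cauda averaged 23.4 ± 7.52 CPM (n = 3), between the corpus (adjusted p = 0.017) and the caput (adjusted p = 0.049).

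Adipoq, Plin1 and Cidec, which white fat cells make and few other cells do, were highest in the efferent ductules. In the efferent ductules of young mice Adipoq stood at 33.2, 44.3, 36.1 and 55.7 CPM, Plin1 at 71.5, 97.0, 57.3 and 81.1 CPM and Cidec at 85.4, 89.6, 63.5 and 124 CPM. All 3 genes were higher there than in the corpus or the vas deferens at both ages, with adjusted p from 3.9e-06 to 0.00082 in all tests. In the corpus and vas deferens the libraries were uneven: Adipoq ran from 2.35 to 15.2 CPM among the young corpus libraries and from 3.13 to 20.0 CPM among those of the vas deferens. Neither region differed from the other in any of the 3 genes. In the initial segment, caput and cauda the young libraries held between 0.120 and 5.30 CPM of any of the 3. Per kilobase of transcript the young efferent ductules held 32.8 ± 7.80 CPM of Adipoq, 27.2 ± 5.92 CPM of Plin1 and 52.7 ± 14.6 CPM of Cidec, beside 57.3 ± 7.28 CPM of Lpl and 195 ± 49.7 CPM of Fabp4.

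The testis did not show the pattern of fat. Its young libraries held 5.55, 5.54, 6.98 and 4.18 CPM of Adipoq, and the old ones 3.88, 5.53, 4.03 and 4.96 CPM. Adipoq was higher in the testis than in the initial segment, caput and cauda at both ages (adjusted p from 5.9e-06 to 0.0023). Retn stood at 1.84 ± 0.258 CPM and Plin1 at 1.70 ± 0.15 CPM in the young testis, with little spread between animals. Yet Cidec stood at 0.210 ± 0.128 CPM, Fabp4 at 0.337 ± 0.0803 CPM and Lep at 0.142 ± 0.0623 CPM, all at about the level of the floor. Cfd, for the fat cell protease adipsin, reached at most 0.163 CPM in any of the 8 testis libraries and 71.1 to 306 CPM in the efferent ductules. The full set of fat cell genes was thus present in the efferent ductules, corpus and vas deferens, and in part only in the testis.

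By age, the 3 genes were lower at 21 months in nearly every region, and the ages overlapped everywhere but for Plin1 in the testis. In the old efferent ductules Adipoq stood at 35.0, 30.9, 11.2 and 13.6 CPM, a difference of -0.83 ± 0.35 on the log2 scale. Plin1 differed there by -0.87 ± 0.33 and Cidec by -0.91 ± 0.36, and in each of the 3 genes 1 or more old libraries lay within the young range. The estimates in the corpus were -0.87 ± 0.45 for Adipoq, -1.03 ± 0.38 for Plin1 and -1.5 ± 0.34 for Cidec. In the vas deferens they were -1.64 ± 0.67, -1.39 ± 0.69 and -1.02 ± 0.66. Standard errors of this size leave the differences in the vas deferens poorly fixed, and old replicate 4, with 0.228 CPM of Adipoq, was the lowest of the 8. Without replicate 4 of both ages the 3 estimates were -1.37, -1.10 and -0.81, that of Fabp4 went from -0.64 to -0.35 and that of Pnpla3 from -1.14 to -0.73.

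The 2 fatty acid carriers behaved differently from each other. Fabp4 followed the fat cell genes through the regions, from 129, 212, 143 and 213 CPM in the young efferent ductules to 9.83, 42.1, 66.7 and 22.5 CPM in the corpus. The old efferent ductules held 91.4, 81.1, 58.6 and 28.4 CPM, all below the young libraries, and the difference was -1.36 ± 0.33. Cd36 was present outside fat as well. The testis held 21.8, 26.7, 24.5 and 22.6 CPM at 3 months and 22.7, 32.0, 26.6 and 24.6 CPM at 21 months. In old mice the efferent ductules, at 34.7 ± 13.6 CPM, did not differ from the testis at 26.5 ± 4.03 CPM (adjusted p = 0.115), although they did at 3 months (97.5 ± 23.7 against 23.9 ± 2.20 CPM, adjusted p = 0.0037). The age difference of Cd36 was -1.42 ± 0.29 in the efferent ductules, where the ages did not overlap, and +0.15 ± 0.10 in the testis. In the initial segment and caput the estimates were 0.00 ± 0.22 and +0.05 ± 0.29, and the sign changed under 5 and 1 of the 12 alternatives. In the proximal epididymis the age difference of Lpl thus stood beside one of Cd36 within 1 SE of 0.

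The hormone genes Retn and Lep had estimates of opposite sign in the regions with most fat signal. Retn in the efferent ductules went from 30.6, 33.4, 23.0 and 43.1 CPM in young mice to 4.65, 7.51, 4.42 and 5.55 CPM in old ones. The difference was -2.50 ± 0.25, and each old library lay far below each young one. Lep stood at 42.1, 36.3, 29.6 and 33.2 CPM in the same young libraries and at 52.1, 93.4, 34.9 and 18.3 CPM in the old ones, a difference of +0.55 ± 0.38 with full overlap. In the corpus Retn differed by -2.11 ± 0.41 and Lep by +0.48 ± 0.43. In the vas deferens Retn differed by -1.78 ± 0.66 and Lep by +1.15 ± 0.67. The estimates of Lep moved widely over 12 alternatives, and stayed positive. The range for efferent ductules was 0.12 to 0.81, for corpus libraries 0.02 to 1.03 and for the vas deferens 0.54 to 1.54. In the same order those of Retn ran from -2.80 to -2.31, -2.65 to -1.53 and -2.52 to -1.48. Lep was the one gene of the 10 with a positive estimate in these 3 regions, and Plin4 became +0.02 in the vas deferens without replicate 4.

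Pnpla3 had the widest difference in the efferent ductules. Its young libraries held 19.3, 26.8, 21.8 and 20.5 CPM and its old ones 2.11, 7.90, 1.47 and 1.09 CPM, a difference of -2.70 ± 0.47. In the corpus 1.21, 2.09, 6.62 and 1.31 CPM stood against 0.464, 0.376, 0.640 and 0.497 CPM, a difference of -2.52 ± 0.51 without overlap of the ages. In the vas deferens the ages overlapped (-1.14 ± 0.75), and in the initial segment the gene had too few counts for a test. At 21 months Pnpla3 did not pass the test between efferent ductules and vas deferens (3.14 ± 3.2 against 1.59 ± 1.30 CPM, adjusted p = 0.116), as it had at 3 months (22.1 ± 3.31 against 3.36 ± 2.27 CPM, adjusted p = 5.9e-05).

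Plin4 did not keep to the fat cell pattern. Young vas deferens libraries held 249, 203, 228 and 235 CPM, as much as the efferent ductules with 226, 256, 191 and 291 CPM (adjusted p = 0.868). The vas deferens held 2.05 to 3.58 log2 units more than each part of the epididymis at 3 months (adjusted p from 9.3e-12 to 3.0e-07). Within the young vas deferens Plin4 varied little where Adipoq varied widely, from 203 CPM in the library with 3.13 CPM of Adipoq to 249 CPM in that with 20.0 CPM. The caput held 55.7 ± 14.7 CPM of Plin4 with 0.405 ± 0.244 CPM of Adipoq. By age Plin4 differed by -0.96 ± 0.28 in the efferent ductules without overlap, by -0.65 ± 0.19 in the caput, and by -0.20 ± 0.20 in the vas deferens. Skeletal muscle also makes Plin4, and the 20 muscle markers summed to 417 to 542 CPM in the young vas deferens, where 8 of them reached 1 CPM and 5 were at 0. In the young cauda 19 of 20 reached 1 CPM, with a sum of 175 to 376 CPM, beside 54.7 ± 15.4 CPM of Plin4. The part of muscle in the Plin4 level was not tested.

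**Figure D2:**
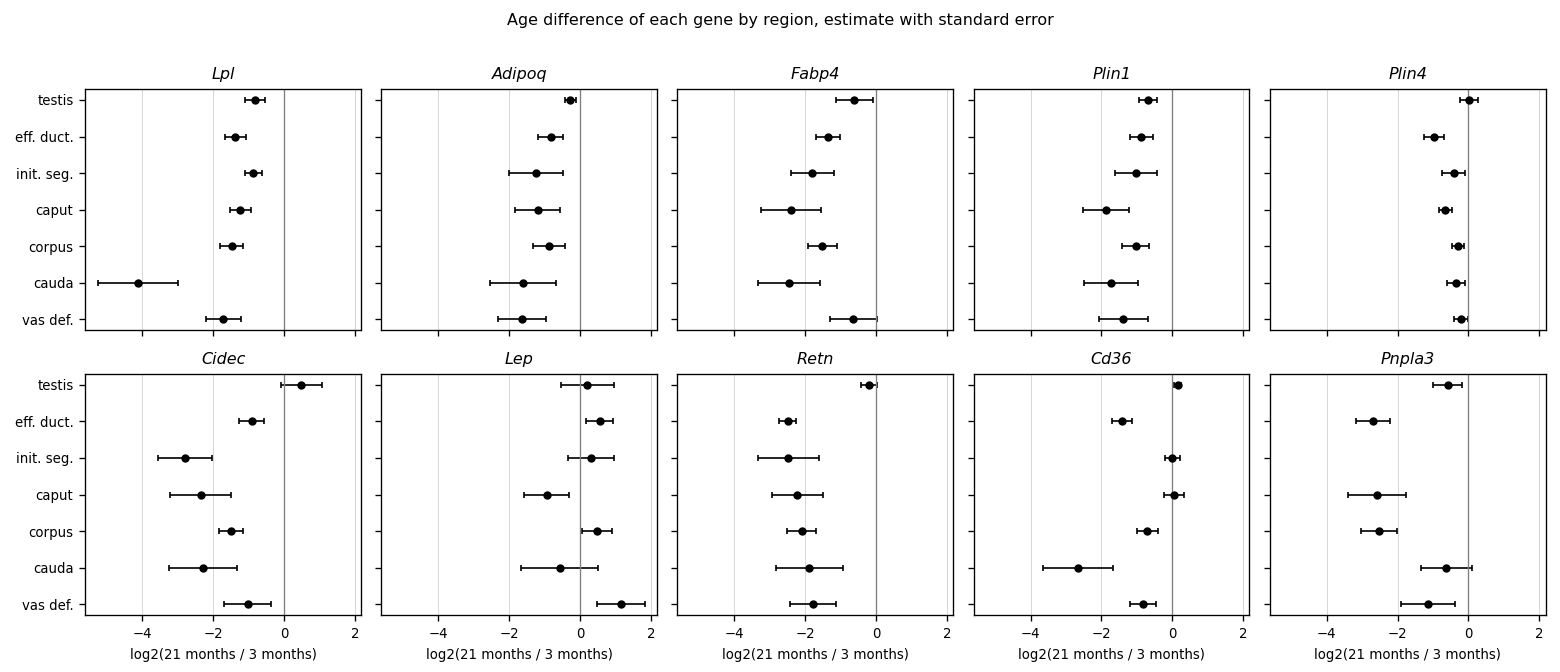
Points give the log2 ratio of 21 to 3 months for each gene and region and bars its standard error from edgeR, with 4 libraries per age; a line marks no difference. Lpl lies left of 0 in all 7 regions, within the efferent ductules and the corpus the estimates of Retn and Pnpla3 are the lowest of the 10, and Lep lies right of 0 in the efferent ductules, corpus and vas deferens.

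Counted over the 10 genes, 5 were called lower at an adjusted p of 0.05 in the efferent ductules, where 2.98% of all tested genes were, and 4 in the corpus (1.47%). Initial segment (2 of 9, 3.01%) and caput (2, 5.05%) followed, with 1 in the vas deferens (8.47%), and 0 in the testis (0.21%) and the cauda (0.0583%). Without adjustment edgeR gave a p under 0.05 for 9 genes in the efferent ductules, 7 in the corpus and 4 in the initial segment. It did so for 7 in the caput, 3 in the vas deferens, 2 in the testis and 5 in the cauda, all lower. The share of all genes at that p is not given here, so these counts have no measure beside them. None of the 10 was called higher in any region (4%, 1.5%, 3.35%, 3.09%, 11.4%, 0.353% and 0.07% of all genes, in the order above). Old and young libraries did not overlap for 6 of the 10 in the efferent ductules (12% of all genes), 2 in the testis (3.17%) and 1 each in the initial segment (14.6%), caput (6.93%), corpus (4.25%) and cauda (4.92%), all lower with age, and for none in the vas deferens (8.9%). The median difference of the 10 genes was -1.16 in the efferent ductules, where that of all genes was -0.04. Since the genes were picked for a fall of this kind, the counts describe them and support nothing further.

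Whether Lpl fell with the fat cell genes or beside them was looked at in each library. The sum of Adipoq, Plin1 and Cidec served as the measure of fat. In the 4 young libraries of the efferent ductules that sum was 190, 231, 157 and 261 CPM, and Lpl was 1.07, 1.17, 1.40 and 0.955 times as high. In the old ones the sum was 119, 180, 89.9 and 51.3 CPM and Lpl 0.745, 0.838, 0.682 and 0.956 times as high. The highest old ratio thus barely passed the lowest young one. In the corpus the ratio was 1.88, 1.52, 1.52 and 1.72 at 3 months and 1.32, 1.36, 1.73 and 0.959 at 21 months. In the vas deferens it was 1.55, 1.77, 1.58 and 2.0 against 0.945, 1.28, 1.57 and 5.21, where the last library is the one with almost no fat signal. The median ratio was lower at 21 months in all 3 of these regions, and the ages overlapped in each. In the other parts of the epididymis, with few fat cell counts, the median was higher at 21 months: it went from 4.64 to 10.7 in the initial segment, from 4.70 to 6.90 in the caput and from 7.10 to 10.3 in the cauda.

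In the same libraries Retn, Lep and Pnpla3 parted further from the fat sum, while the ratios of Plin4, Fabp4 and Cd36 overlapped between the ages in the efferent ductules. These ratios were drawn up after the values had been seen. Retn was 0.161, 0.145, 0.146 and 0.165 times the sum in the young efferent ductules and 0.0392, 0.0418, 0.0491 and 0.108 times in the old. Lep was 0.222, 0.157, 0.189 and 0.127 times the sum in the young and 0.440, 0.520, 0.388 and 0.356 times in the old. Neither gene's ratios overlapped between the ages in that region. The ratio of Lep to the sum was higher in every old than in every young library in the corpus too, at 0.0623 to 0.131 against 0.155 to 0.447, and in the vas deferens, at 0.0317 to 0.0613 against 0.115 to 0.460. Pnpla3 was 0.0786 to 0.139 times the sum in the young efferent ductules and 0.0164 to 0.0440 in the old. In the vas deferens the ages overlapped for Retn and Pnpla3, and 1 young and 3 old libraries there rested on fewer than 20 CPM of the sum.

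**Figure D3:**
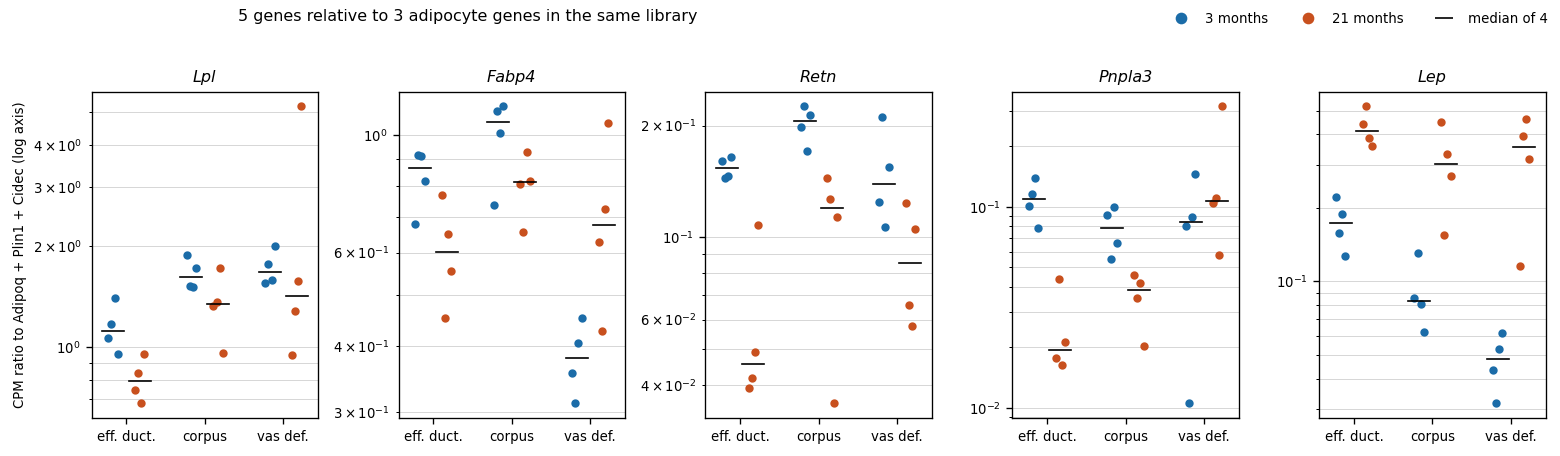
The ratio of 5 genes to the sum of Adipoq, Plin1 and Cidec in the same library is drawn on log axes that differ between panels, for the 3 regions with most fat signal; each point is 1 library and bars are the median of 4. Lep stands higher against the sum at 21 months in all 3 regions without overlap of the ages, and Retn lower in the efferent ductules, from a median of 0.154 to one of 0.0455.

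A fit over the 48 libraries outside the testis set Lpl beside a fat index, the mean log2(CPM + 0.1) of Adipoq, Plin1 and Cidec. Averaged over the 6 regions Lpl was lower at 21 months by 1.78 ± 0.27 without the index, and by 1.5 ± 0.32 at equal index. Young cauda replicate 3 carried much of that, since without it the 2 values were 1.30 ± 0.17 and 0.52 ± 0.12. Region by region, the difference at equal index without that library was -0.87 ± 0.21 in the efferent ductules, -0.83 ± 0.23 in the corpus and -0.85 ± 0.24 in the vas deferens. It was -0.12 ± 0.26 in the initial segment, -0.39 ± 0.26 in the caput and -0.03 ± 0.27 in the cauda. The slope of Lpl on the index was 0.25 ± 0.16 with all libraries and 0.54 ± 0.05 without that one, per log2 unit, and 1 slope was used for all regions. For the other genes at equal index, with all 48 libraries, the mean difference was -1.02 ± 0.24 for Retn, -0.64 ± 0.36 for Pnpla3, -0.84 ± 0.30 for Fabp4 and +1.61 ± 0.23 for Lep. Without young cauda replicate 3 Fabp4 moved to -0.02 ± 0.15, while Retn stood at -1.07 ± 0.24 and Lep at +1.56 ± 0.24.

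The fit reads the low-fat regions through counts of a few fat cell reads, so a direct allowance was set beside it, also chosen after the values had been seen. The highest ratio of Lpl to the fat sum in the young efferent ductules, 1.40, was applied to every library of either age, and the product was taken off. In the initial segment 5.53, 5.97, 10.4 and 5.20 CPM of Lpl then remained at 3 months and 4.72, 4.16, 3.08 and 4.20 CPM at 21 months, without overlap. In the cauda 12.2, 11.9, 603 and 16.3 CPM remained against 5.23, 11.6, 9.49 and 6.42 CPM, again without overlap. In the caput 3.56 to 11.4 CPM remained against 2.70 to 4.29 CPM, with overlap. The allowance took off 10.1% to 38.1% of Lpl in the young initial segment, 14.7% to 52.5% in the caput and 0.234% to 61.8% in the cauda. These remainders depend on the ratio applied. At 2.0, the highest ratio of any young library of efferent ductules, corpus or vas deferens, 4.07 to 8.54 CPM remained in the young initial segment against 2.87 to 4.23 CPM in the old, and in the cauda 3.76 to 602 CPM against 3.14 to 11.01 CPM. The ages then overlapped in both regions, and which ratio or scale applies was not tested.

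**Figure D4:**
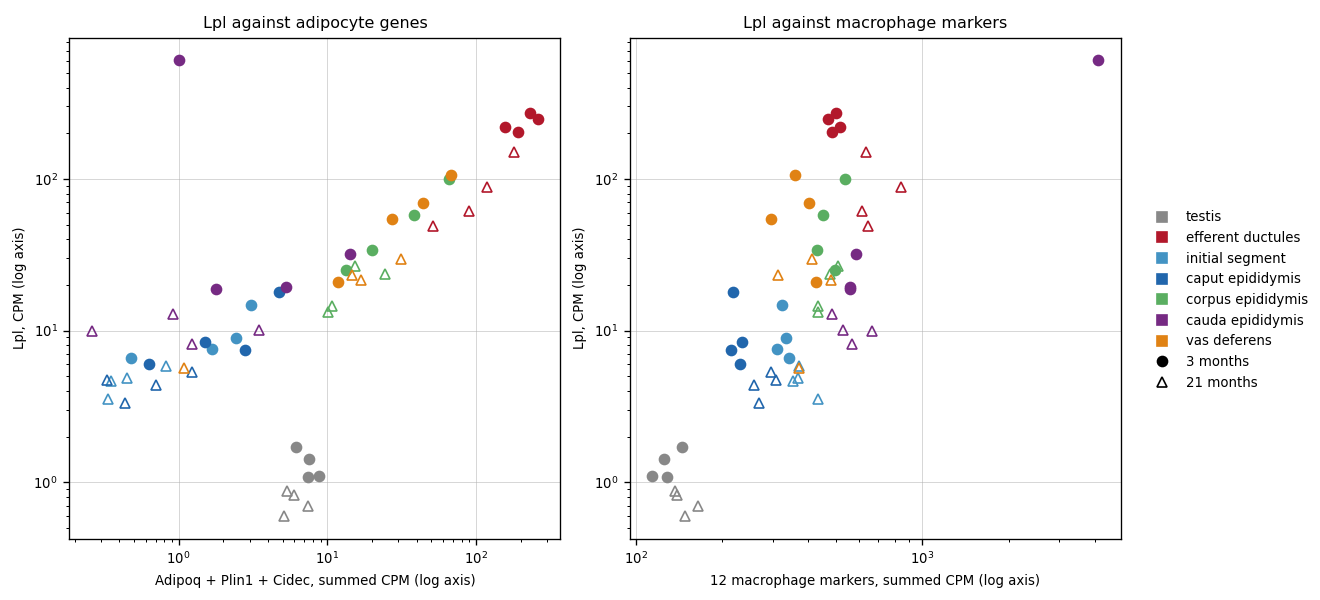
Lpl in each of the 56 libraries is plotted against the summed CPM of Adipoq, Plin1 and Cidec (left) and of 12 macrophage markers (right), all on log axes, with colour for region, filled circles for 3 months and open triangles for 21 months. Lpl runs with the fat sum from the corpus to the efferent ductules and levels off at 3.31 to 18.0 CPM in the initial segment and caput; young cauda replicate 3 lies alone at the top of both panels, at 1.01 CPM of the fat sum and 4120 CPM of macrophage markers.

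Young cauda replicate 3 held Lpl at 18.8 times and Cd36 at 15.3 times the highest of the other 3 libraries. Several fat cell genes were low, with Adipoq at 0.159, Cidec at 0.265, Lep at 0.106 and Retn at 0.106 CPM, within or below the range of the floor. Young replicate 4 held 0.319, 0.893, 0.0638 and 0.319 CPM of them, and replicates 1 and 2 held more. Macrophage markers were high: 11 of 12 were higher than in the other 3 libraries and 6 were over 5 times as high, against 25.7% and 1.33% of all 19674 genes with a mean of at least 1 CPM. Of the 16 endothelial markers 15 were higher and 0 over 5 times as high, and of the 10 fibroblast markers 8 and 2. The 12 macrophage markers summed to 4120 CPM in that library and to 558 to 587 CPM in the others. Among the macrophage markers Cd68, of the lysosome, reached 337 CPM against 9.31 to 10.8 CPM, and Trem2, a lipid receptor, 147 against 9.69 to 12.3 CPM. Pparg, the regulator of fat cell formation that macrophages also make, stood at 12.2 CPM against at most 1.66 CPM, and Fabp4 at 23.0 CPM, 1.92 times the highest of the other 3. Of the lipid lists 7 of 14 partners of LPL, 4 of 9 fat cell transcription factors, 2 of 12 uptake genes, 5 of 14 droplet genes and 2 of 15 synthesis genes were higher. Among them were Plin2, the droplet coat of non-fat cells, at 343 CPM against 7.88 to 9.97 CPM, and Fabp5 at 319 against 4.45 to 6.38 CPM. Spp1, for osteopontin, stood at 822 CPM against at most 1.40 CPM. None of the 15 other fat cell markers was over 5 times as high. Of the 6 brown fat markers 3 were higher and 1 was over 5 times as high, Dio2 at 22.1 CPM against at most 1.05 CPM. The collagen genes Col1a1 and Col3a1, at 2424 and 3473 CPM, were also over 5 times as high as in the other libraries. These genes and the library were chosen after the values had been seen, 1 library has no replicate, and the part of macrophages in its Lpl was not tested.

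**Figure D5:**
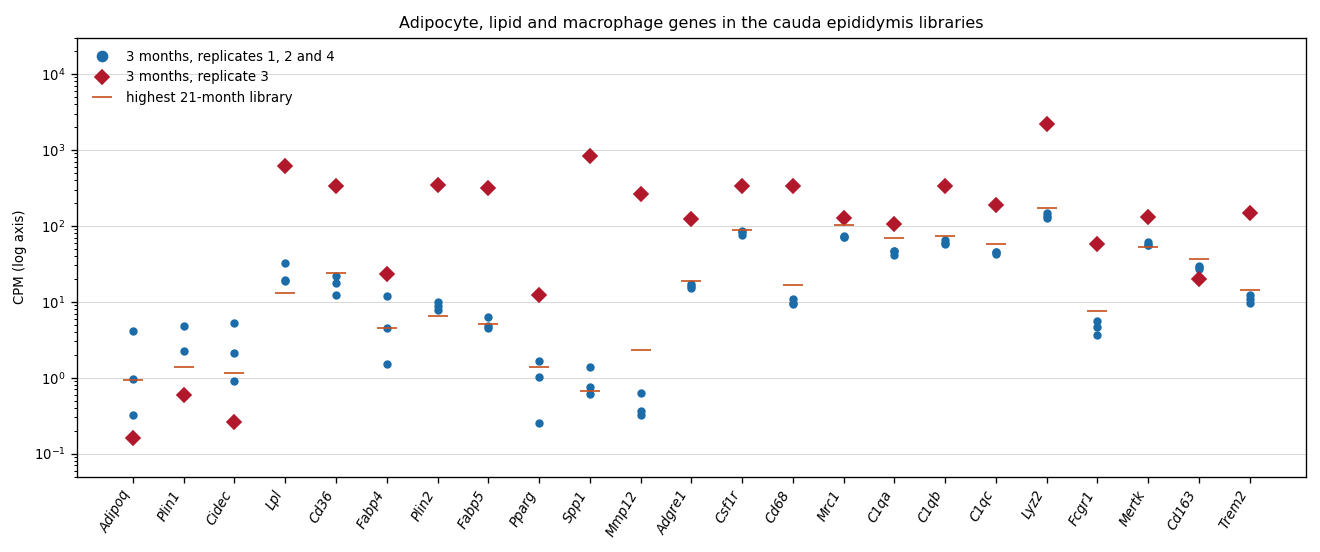
CPM on a log axis of fat cell, lipid and macrophage genes in the cauda epididymis; blue points are young replicates 1, 2 and 4, red diamonds young replicate 3, and bars the highest of the 4 old libraries. Replicate 3 lies lowest in Adipoq and Cidec and highest in Lpl, Cd36, Plin2, Fabp5 and in all macrophage markers but Cd163.

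Markers of other cell types also moved with age, and their part in the Lpl difference was not tested. The 10 fibroblast markers summed to less in each old than in each young library of all 7 regions, as Lpl did in 5. Their sum ran from 2931 to 4025 CPM in the young efferent ductules and from 1565 to 1816 CPM in the old, and from 1276 to 1938 against 798 to 1002 CPM in the initial segment. The macrophage markers went the other way, without overlap, in the efferent ductules (469 to 515 CPM in young and 614 to 839 CPM in old libraries), the initial segment (311 to 342 and 353 to 432 CPM) and the caput (215 to 234 and 258 to 308 CPM). The 5 red blood cell markers were higher without overlap in the efferent ductules, at 17.3 to 29.8 CPM in young and 38.4 to 114 CPM in old libraries. The same held in the corpus, at 65.7 to 85.7 and 102 to 436 CPM. In each region 4 of 5 were called higher, beside 4% and 1.5% of all genes. In the efferent ductules Gm42418, which overlaps ribosomal RNA, took 1.27% to 3.29% and 4.93% to 22.2% of the counts. The sum of the 16 endothelial markers overlapped between the ages in all 7 regions. It ran from 502 to 582 and 371 to 567 CPM in the efferent ductules and from 404 to 485 and 265 to 407 CPM in the vas deferens. There 6 of 16 were called lower and none higher, beside 8.47% and 11.4% of all genes. In the cauda all 16 had a negative estimate and none was called, where the median difference of all genes was 0.003. Skeletal muscle markers were lower without overlap in the initial segment, the caput and the cauda, the last at 175 to 376 CPM in young and 99.5 to 143 CPM in old libraries. In the vas deferens their sums overlapped, at 417 to 542 and 462 to 631 CPM. There 6 of 20 were called higher and 0 lower, beside 11.4% and 8.47% of all genes. The 7 smooth muscle markers summed to less in each old library of the initial segment (2747 to 3205 CPM in young and 1929 to 2305 CPM in old), of the caput (1137 to 1496 and 817 to 956 CPM), of the cauda (4744 to 7245 and 3079 to 4583 CPM), and of the testis (312 to 346 and 284 to 299 CPM). They summed to more in each old library of the efferent ductules (668 to 756 and 763 to 900 CPM) and of the vas deferens (11895 to 12563 and 12869 to 20803 CPM). In the vas deferens 4 of 7 were called higher, beside 11.4% of all genes. Germ cell markers summed to 24.4 to 91.7 CPM in the young initial segment and to 5.82 to 16.4 CPM in the old. There 6 of 8 were called lower, beside 3.01% of all genes. In the caput the germ cell sums were 55.2 to 82.0 against 37.6 to 46.0 CPM. The Leydig cell sum was lower without overlap in the initial segment and cauda, the brown fat sum in the testis and the mesothelial sum in the cauda, and the mesothelial sum was higher in the caput. Ucp1, the defining gene of brown fat, was at most 0.489 CPM in any library.

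The wider lipid pathway was read from 6 lists of 80 genes that hold none of the 10, and tested by age with edgeR. In the efferent ductules 16 of 78 tested genes were called, 5 higher and 11 lower, a share of 20.5% beside 6.99% of all genes. In the vas deferens 20 of 75 were called, 11 higher and 9 lower (26.7% beside 19.9%), and in the caput 4 higher and 3 lower of 76 (9.21% beside 8.14%). In the corpus 5 of 74 were called, all lower (6.76% beside 2.97%), in the initial segment 2 higher and 2 lower of 77 (5.19% beside 6.35%), and in the testis 1 of 68 (1.47% beside 0.563%). In the cauda edgeR called 0 of 75 (0.128% of all genes), while DESeq2 called 2. At an unadjusted p under 0.05 edgeR gave 13 lower and 2 higher there, and the share of all genes at that p is not given here. Leaving out 1 replicate number brought the efferent ductules to between 1 and 9 calls, in fits of 6 libraries in place of 8. Scaling by library size alone gave 2 higher and 26 lower there and 1 higher and 2 lower in the caput.

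Among the partners of LPL, the proteins that anchor, mature or inhibit it, Gpihbp1 and Lmf1 did not pass the test. Sel1l, another gene of that list, was called lower in 1 region. In the vas deferens 4 of the 10 partners tested were called higher and 2 lower, beside 11.4% and 8.47% of all genes. Gpihbp1, the anchor on the capillary wall, stood at 6.26 CPM at 3 months and 5.63 CPM at 21 months in the efferent ductules (log2 difference -0.08 ± 0.22, adjusted p = 0.868). Lmf1, needed for the enzyme to fold, stood at 29.3 and 29.4 CPM (adjusted p = 0.793), and neither gene passed in any region. Angptl4, an inhibitor of the enzyme, fell in 3 parts of the epididymis. It went from 8.72 ± 1.12 to 4.25 ± 1.93 CPM in the initial segment (adjusted p = 0.042), in caput libraries from 8.79 ± 1.80 to 4.86 ± 0.802 CPM (adjusted p = 0.0083) and from 12.8 ± 1.79 to 5.78 ± 1.06 CPM in the corpus (adjusted p = 0.00059), without overlap in any. Lipc, for hepatic lipase, rose in the initial segment from 4.90 ± 0.566 to 23.3 ± 4.16 CPM and in the vas deferens from 0.215 ± 0.0539 to 0.737 ± 0.228 CPM (adjusted p = 0.018). Apoe, a ligand of lipoprotein uptake that macrophages also make, rose in the efferent ductules from 956 ± 107 to 1724 ± 460 CPM (adjusted p = 0.028) and in the vas deferens from 143 ± 14.1 to 345 ± 31.9 CPM.

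The factors that drive fat cell genes did not move as one. Pparg, the nuclear receptor at the head of the fat cell programme, fell in the efferent ductules from 9.45 ± 1.46 to 4.21 ± 0.864 CPM (-1.09 ± 0.20, adjusted p = 0.015). Cebpa stood there at 57.6 CPM at 3 months and 73.3 CPM at 21 months (adjusted p = 0.139). Cebpb and Cebpd rose, from 25.0 ± 1.92 to 55.5 ± 6.61 CPM (adjusted p = 0.0032) and from 18.7 ± 4.93 to 31.5 ± 5.17 CPM (adjusted p = 0.024), and both rose in the vas deferens too. Of the 9 factors 4 were called higher and 1 lower in the efferent ductules, and 4 higher and none lower in the vas deferens, beside 4% and 11.4% of all genes higher.

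Of the fat cell markers outside the 10, 6 of 15 were called lower and none higher in the efferent ductules, where 2.98% of all genes were lower. In the corpus 4 of 15 were lower (1.47%), in the vas deferens 3 lower and 1 higher of 15 (8.47% and 11.4%), and in the caput 2 lower and 2 higher of 14 (5.05% and 3.09%). Cfd fell in the efferent ductules from 245 ± 50.3 to 97.7 ± 18.7 CPM (adjusted p = 0.0100) and Car3, an abundant carbonic anhydrase of fat, from 427 ± 78.8 to 173 ± 77.7 CPM (adjusted p = 0.034). Car3 fell in the initial segment, caput and corpus as well, by 2.43 ± 0.61, 2.80 ± 0.75 and 1.45 ± 0.34 on the log2 scale. Acvr1c, a receptor of the activin family found in fat, fell in the efferent ductules, corpus and vas deferens and rose in the caput (+0.79 ± 0.21, adjusted p = 0.036), and Pde3b fell in the efferent ductules and corpus and rose in the caput (+0.53 ± 0.10, adjusted p = 0.0096). In the caput, where Adipoq was at most 0.767 CPM, these genes thus went the other way from Car3.

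Of the synthesis genes, Scd1, the desaturase that makes oleate, fell in the efferent ductules from 1267 ± 175 to 430 ± 214 CPM (adjusted p = 0.020), with Acaca (-0.37 ± 0.10) and Me1 (-0.44 ± 0.11). Pck1, which supplies glycerol for triglyceride in fat, fell in the vas deferens from 10.7 ± 5.77 to 1.89 ± 1.42 CPM (adjusted p = 0.012). Thrsp fell there by 1.79 ± 0.48 and rose in the caput by 1.01 ± 0.23. Of the lipases that empty the droplet, Lipe stood at 79.3 CPM at 3 months and 42.5 CPM at 21 months in the efferent ductules without passing the test (-0.84 ± 0.24, adjusted p = 0.061). Pnpla2 rose in the vas deferens from 49.4 ± 3.51 to 71.8 ± 5.29 CPM (adjusted p = 0.0021) and passed nowhere else. Aqp7, the glycerol channel of fat, fell in the efferent ductules by 0.90 ± 0.21 (adjusted p = 0.034). Fitm2, which helps new droplets form, fell in the vas deferens by 0.53 ± 0.10 (adjusted p = 0.0063). In the uptake list Fabp3 rose in the vas deferens (+0.64 ± 0.20, adjusted p = 0.049), and Cav2 rose in the caput and fell in the vas deferens (-0.67 ± 0.07, adjusted p = 0.00046).

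Likeness between genes was measured as Pearson's r over the deviations of the 56 libraries from their group means, as a description, since libraries share depth and preparation. Adipoq ran with Cidec (r = 0.88), Plin1 (r = 0.85), Retn (r = 0.81) and Lep (r = 0.80). Outside the 10 the genes most like Adipoq were Cfd (r = 0.83), Acvr1c (r = 0.83), Car3 (r = 0.81), Cyp2e1 (r = 0.79) and Hp (r = 0.78). Lpl ran with Cd36 (r = 0.93) and Fabp4 (r = 0.76) and less with Adipoq (r = 0.39), and outside the 10 with Abcd2 (r = 0.90), Rnf150 (r = 0.85), Nrp1, Plin2 and Cd93 (each r = 0.80). Without young cauda replicate 3, over 55 libraries, Lpl ran with Adipoq at r = 0.84 and Cidec at r = 0.87, and the genes most like it became Pck1 (r = 0.82), Hp (r = 0.80), Acvr1c (r = 0.79), Npr3 (r = 0.77) and Abcd2 (r = 0.76). The likeness of Lpl to Adipoq thus depended on that single library, and Abcd2 was among its nearest genes with and without it, while the list for Adipoq held the same 5 genes with and without it.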

How the data were processed

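Total RNA of 56 libraries (7 regions, 2 ages, 4 libraries a group) was sequenced from a stranded kit. The deposited values are raw read counts per Ensembl gene, made by the authors with cutadapt, HISAT2 and HTSeq on GRCm38 per the labels and the submitters' processing notes. Their versions, the annotation release, the counting mode and the strand setting are not given in the sources used here. The labels name TRIzol for RNA extraction and the study's methods a column kit. Totals of 11125279 to 20561967 counts set the precision, and limits from a count of 0 (3 counts) cover counting error only.

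The 10 genes and the 6 pathway lists were chosen with earlier results of these data known. Symbols were matched for 53274 of 53379 rows. CPM was computed with TMM factors over all libraries. Rows reaching 10 counts in sum over the libraries compared entered edgeR's quasi-likelihood test (version 4.0.16, under R 4.3.3), adjusted by Benjamini-Hochberg over all of them and called at an adjusted p of 0.05. Ages were compared within a region over 8 libraries and regions in 21 pairs within an age over 28. The study's own tool, DESeq2 (1.42.0), was an alternative, as were other scaling, filters, a replicate block, 1 fit for all libraries and leaving out each replicate. The index fit was edgeR's quasi-likelihood model on counts with TMM scaling. Its terms were region, age within region and the index, the mean log2(CPM + 0.1) of Adipoq, Plin1 and Cidec. The tests were tried on simulated data first. Pathway genes are named as up to 3 in each list called in most regions, ties by mean absolute log2 difference, beside 9 named whatever their values (Gpihbp1, Lmf1, Angptl4, Pparg, Cebpa, Cfd, Pnpla2, Lipe and Ucp1). Other names in those lists, the ratios, the direct allowance and the comparisons of cauda replicate 3 were chosen after the values were seen.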

Additional observations from a re-analysis of the deposited data

Results flagged for a closer look

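In 10 of 140 groups of 4 libraries 1 library lay apart by Dixon's criterion for 4 values, and chance alone flags about 1 in 20 groups. In the cauda epididymis at 3 months, replicate 3 held 604 CPM of Lpl against 18.8 to 32.1 CPM in the others, 337 CPM of Cd36 against 12.4 to 22.0 CPM, and a low 31.8 CPM of Plin4 against 60.7 to 63.4 CPM. At 21 months replicate 2 of the cauda held 24.7 CPM of Plin4 against 47.3 to 50.9 CPM. Replicate 4 of the old vas deferens held 112 CPM of Plin4 against 235 to 245 CPM, and young replicate 2 there 0.125 CPM of Pnpla3 against 3.91 to 5.45 CPM. In the efferent ductules at 3 months replicate 4 held 133 CPM of Cd36 against 83.9 to 86.7 CPM. The other flags were in genes near the floor of 3 counts in part of the group. In the initial segment Fabp4 stood at 1.64 CPM in old replicate 1 against 0.201 to 0.353 CPM, and Cidec at 0.120 CPM in young replicate 2 against 1.16 to 1.44 CPM. Lep stood at 0.235 CPM in young testis replicate 4 against 0.109 to 0.115 CPM.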

How the results depend on the processing

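Lpl was lower at 21 months in all 7 regions under each alternative run. Among the age differences of the 10 genes 9 of 69 changed sign under 1 or more alternatives: Plin4 in testis, initial segment and vas deferens, Lep in testis and caput, Cd36 in initial segment, caput and cauda, and Pnpla3 in the cauda. In the cauda the Lpl difference of -4.12 became -1.16 without replicate 3 of the 3-month group, a choice made after seeing the data, and ran from -4.62 to -1.15 when 1 replicate number was left out. Without replicate 3 the difference of Lpl was -0.45 instead of -0.86 in the initial segment and -0.81 instead of -1.23 in the caput. At equal fat index the mean difference of -1.5 became -0.52 without that library and ran from -1.76 to -0.54 with 1 number left out. The counts of regional differences stayed within 1.5 times under every alternative.

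The counts of called pathway genes moved more. Without a filter the testis gave 6 instead of 1 and the corpus 15 instead of 5. With 1 fit over all libraries the testis gave 0, the corpus 1 and the cauda 12 instead of 0. Scaling by library size alone gave 28 instead of 16 in the efferent ductules, 3 instead of 7 in the caput and 9 in the corpus, where the median of all genes was then -0.38, 0.19 and -0.17, against -0.04, -0.01 and -0.01. An unadjusted p with a 1.5-fold change gave 9 instead of 4 in the initial segment, 9 in the corpus and 11 in the cauda. The share of all genes under that rule is not given here. DESeq2 gave 12 in the corpus and 2 in the cauda. With 1 replicate number left out the counts ran from 0 to 4 (testis), 1 to 9 (efferent ductules), 1 to 5 (initial segment), 0 to 10 (caput), 1 to 9 (corpus) and 8 to 21 (vas deferens). These fits have fewer libraries; for the other alternatives the cause was not tested.

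Replicate numbers did not meet the criterion for pairing, though they may still mark shared mice: 1 of 21 pairs of regions at 3 months and 0 at 21 months had every correlation over 0.1. Deviations of same-numbered libraries correlated at a mean of 0.036 between regions at 3 months, 0.0047 at 21 months and 0.029 between the ages. With the replicate block the Lpl difference in the cauda was -2.08 and the corpus had 11 called pathway genes. Single lists did follow a number: old replicate 4 held the most red blood cell marker RNA of its group in 6 of 7 regions. Depth limits the genes near the floor, such as Pnpla3 in the initial segment.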
